A study of Mus musculus with 12 samples.

Results

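CpG methylation was examined in stretches of DNA at the ends of protein-coding genes that were neither unmethylated nor fully methylated in the left ventricle of young mice. Autosomal CpG sites with a value in all 12 mice were grouped into 500 bp tiles holding at least 3 sites. A tile was kept when one of its sites lay within 1 kb of either end of a protein-coding gene and when its mean methylation over all 12 mice was 20 to 80%. This gave 892 tiles of 38449 in all, at the ends of 813 genes. The mean over the 12 mice chose the tiles, so that mean is given below as a description. The rule did not use the difference between the diets, but it was set with earlier results of these data known. A tile under 20% in one diet group could still enter through the other.

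The values came from reduced representation bisulfite sequencing (RRBS), in which the enzyme MspI cuts DNA at CCGG and bisulfite treatment then marks the cytosines that carry no methyl group. The mice were wild-type FVB/N offspring, and the DNA came from the left ventricle at 3 weeks of age. From the age of 6 weeks the mothers ate either high-fat chow (the HFD groups) or regular chow (the RD groups), and after 8 weeks they were mated with males kept on regular chow. The groups were 3 HFD females, 3 HFD males, 4 RD females and 2 RD males. The labels do not give the number of mothers, so mice of a group may be littermates, and p-values measure the spread between these mice only. The HFD libraries carry the numbers 2 to 8 and the RD libraries 9 to 14, so a difference by library order cannot be told apart from one by diet. The values are percentages without read counts, so the depth behind each is unknown. Each library held a value at 385299 to 417081 sites.

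In mammals most CpGs carry a methyl group, while the CpG islands at the starts of many genes do not. Intermediate levels arise in several known settings. At imprinted genes a control region is methylated on the copy from one parent only. Promoters of genes used only in germ cells are methylated in body tissues. Regulatory DNA used in one cell type of a tissue can be unmethylated there and methylated in its neighbours. A percentage from bulk DNA averages over all cells and over both copies of a gene. Methylation in some of the cells, on one of the copies, or at some of the molecules cannot be told apart in these values.

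The following sequences show what such tiles look like. Each is the 250 bases before a transcription start in RefSeq (assembly GRCm38.p6, the build called mm10 in the submitters' processing notes), written on the strand of the gene, with the CpGs measured in the tile in capitals. The first pair comes from imprinted genes and was chosen by the rule for tiles that differed most by diet. The others were chosen after their values had been seen. They stand for a promoter that varied widely between mice (Ugcg), for germ-cell promoters (Slc25a31 and Ddx4) and for a tile of low and high sites (Tmem267). Most low sites of the Tmem267 tile lie outside the printed stretch.
Zrsr1 tile, chr11:22972867-22973116, minus strand, before a start of Commd1: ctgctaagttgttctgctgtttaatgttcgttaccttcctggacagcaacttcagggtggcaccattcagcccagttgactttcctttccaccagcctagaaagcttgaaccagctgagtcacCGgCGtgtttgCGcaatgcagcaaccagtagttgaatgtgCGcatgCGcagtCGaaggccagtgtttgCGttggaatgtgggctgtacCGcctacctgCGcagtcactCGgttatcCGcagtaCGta
Plagl1, chr10:13090582-13090831, plus strand: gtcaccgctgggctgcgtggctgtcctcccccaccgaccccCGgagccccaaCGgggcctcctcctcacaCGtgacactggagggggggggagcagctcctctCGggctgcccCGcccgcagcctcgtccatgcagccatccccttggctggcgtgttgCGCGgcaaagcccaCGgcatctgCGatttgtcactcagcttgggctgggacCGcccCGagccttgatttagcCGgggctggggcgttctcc
Ugcg, chr4:59189300-59189549, plus strand: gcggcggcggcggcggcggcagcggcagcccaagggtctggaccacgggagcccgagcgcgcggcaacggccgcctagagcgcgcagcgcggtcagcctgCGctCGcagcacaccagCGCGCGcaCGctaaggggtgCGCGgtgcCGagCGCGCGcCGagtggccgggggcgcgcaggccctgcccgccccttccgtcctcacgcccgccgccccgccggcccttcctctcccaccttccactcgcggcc
Slc25a31, chr3:40708621-40708870, plus strand: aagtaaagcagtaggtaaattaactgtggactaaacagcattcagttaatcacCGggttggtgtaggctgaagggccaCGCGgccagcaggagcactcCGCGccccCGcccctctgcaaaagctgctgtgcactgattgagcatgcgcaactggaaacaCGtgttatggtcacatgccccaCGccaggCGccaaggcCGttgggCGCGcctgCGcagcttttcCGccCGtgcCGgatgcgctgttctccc
Ddx4, chr13:112652311-112652560, minus strand: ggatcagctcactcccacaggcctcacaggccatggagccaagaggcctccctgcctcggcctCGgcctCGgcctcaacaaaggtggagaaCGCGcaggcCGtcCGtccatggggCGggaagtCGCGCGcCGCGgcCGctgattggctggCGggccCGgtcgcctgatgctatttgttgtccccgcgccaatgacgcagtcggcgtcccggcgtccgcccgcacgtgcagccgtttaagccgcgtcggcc
Tmem267, chr13:119488223-119488472, plus strand: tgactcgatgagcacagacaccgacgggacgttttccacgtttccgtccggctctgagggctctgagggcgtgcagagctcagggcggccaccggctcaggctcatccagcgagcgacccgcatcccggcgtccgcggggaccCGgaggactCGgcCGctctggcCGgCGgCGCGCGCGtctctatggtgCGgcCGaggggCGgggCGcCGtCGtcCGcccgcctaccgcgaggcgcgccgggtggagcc
These stretches differ widely in CpG content. The Ugcg stretch holds 43 CpGs, with a ratio of observed to expected CpGs of 1.07, and the Plagl1 stretch holds 19, with a ratio of 0.62. The hexamer TGCCGC, which the imprint-keeping protein ZFP57 binds when methylated, occurs on either strand 1 time in the Plagl1 stretch, 3 times in the Ugcg stretch and not in the other four. It is present in 8.69% of all 31365 promoter stretches of the same length. The MspI site CCGG was found in all 6 stretches, 1 to 6 times each, against 47.7% of all stretches. RRBS reads DNA cut at that site and these stretches come from measured tiles, so the contrast says nothing about such tiles.

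Intermediate methylation was uncommon at gene ends. Of 12484 tiles there, 10845 averaged under 20%, 892 averaged 20 to 80% and 747 averaged more than 80%. The intermediate share was 7.15% at gene ends, against 31.3% (8139 of 25965) in tiles farther away. Within the range the tiles gathered towards both limits: 184 averaged 20 to 30%, 114 averaged 50 to 60% and 199 averaged 70 to 80%. At the lower limit, Lgi2 and Irx1 lay just inside at 20.1% each, and Flt1 and Arsi just outside at 19.9% and 19.99%. At the upper limit, Hk3 and Tmem163 lay just inside at 79.99% and 79.95%, and Rpap3 and Crybg2 just outside at 80.1% each.

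The starts and the 3′ ends of genes differed. Of 8747 tiles assigned to a gene start, 384 (4.39%) were intermediate. Of 1103 tiles assigned to a 3′ end, 305 (27.7%) were. The remaining 203 members lay at genes whose strand was not in the reference table used. The median level was 46.5% in members at starts and 60.9% in members at 3′ ends. Around starts the intermediate share was 2.92% in the first 250 bp of the gene and 23.8% at 750 to 1000 bp upstream. Around 3′ ends it was 22.2 to 35% in every 250 bp step. Of members at starts, 63.8% (245 of 384) lay on the gene's side of the end, against 73.8% of all tiles there. At 3′ ends 73.4% of members (224 of 305) and 74% of all tiles did.

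**Figure D1:**
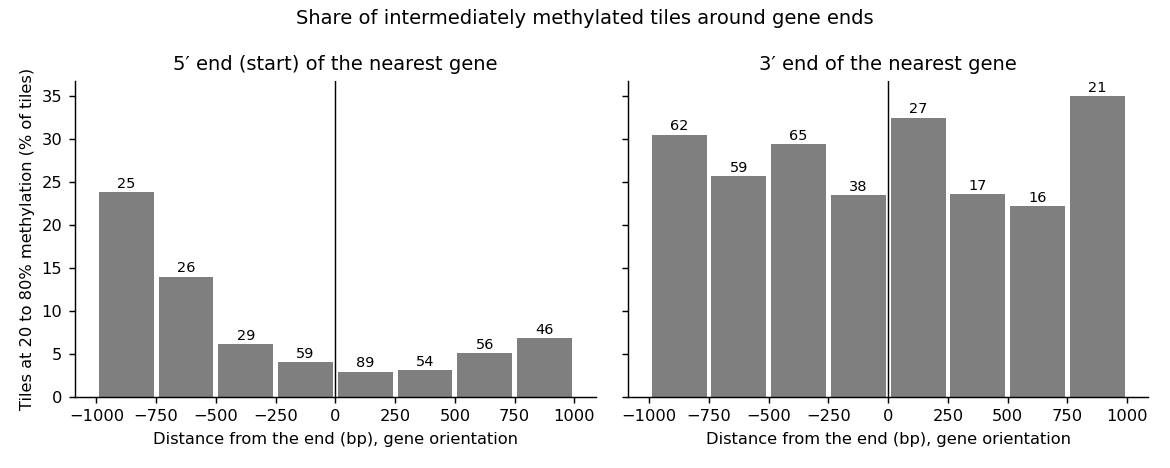
Share of tiles averaging 20 to 80% methylation by distance from the nearest gene end, with negative distances upstream of the end in the direction of the gene and the number of intermediate tiles above each bar. The share falls from 23.8% far upstream of starts to 2.92% just inside them and is 22.2% or higher in every bar around 3′ ends; tiles of genes with unknown strand are not drawn.

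Members near a start were poorer in CpGs than the unmethylated promoters. The 99 members that overlapped a RefSeq promoter stretch of 300 bases, running from 250 before to 50 after the start, had a median observed to expected CpG ratio of 0.448 there. Of these, 27.3% exceeded 0.6, a common limit for CpG islands. The 3217 gene-end tiles under 20% that overlapped such a stretch had a median ratio of 0.819, with 86.3% above 0.6. The 34 tiles above 80% had a median ratio of 0.465. The median GC content was 58.0% in members and 64.7% in tiles under 20%.

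Most genes had a single member. There were 739 genes with 1 member, 69 with 2 and 5 with 3, the last being Aldh2, Gpr84, Il17d, Irx1 and Trrap. No neighbouring tile was measured for 593 members. Of the 317 neighbouring tiles that were measured, 45.4% were under 20%, 41.0% were intermediate and 13.6% were above 80%. Il17d, a cytokine gene, had its 3 tiles at 67.0, 70.3 and 77.8%. Aldh2, the mitochondrial aldehyde dehydrogenase, had tiles at 51.6, 28.8 and 27.5%. Irx1, a homeobox gene, had tiles at 37.4, 20.1 and 21.0%.

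Within a tile, a mean in the middle could come from sites that were all in the middle or from a mixture of low and high sites. All sites averaged 20 to 80% in 331 members (37.1%), while 58 (6.50%) held sites both under 20% and above 80%. Among the 295 members with 6 or more sites these shares were 23.4% and 9.83%. Over all 5127 member sites, 73.1% averaged 20 to 80%, 13.2% were lower and 13.7% were higher. The SD across the sites of a member had a median of 12.7 percentage points.

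Of members with 6 or more sites, those with the smallest spread between sites were Snurf, Ugcg, Nap1l5 and Rrad. The 6 Snurf sites, at an imprinted locus active on the paternal copy, averaged 46.0 to 48.6%. The 8 sites of Nap1l5, an imprinted retrogene, averaged 47.3 to 53.2%. The 13 sites of Ugcg, the enzyme that makes glucosylceramide, averaged 17.2 to 21.98%. The 6 sites of Rrad, a small GTPase that restrains cardiac calcium channels, averaged 74.2 to 79.7%.

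Again among members with 6 or more sites, the largest spread between sites was found in Tmem267, 4933428G20Rik, Mtnr1a and Ano8. In Tmem267, a transmembrane protein gene, the first 15 sites averaged 0.401 to 4.37%. The 15 high sites that followed, after a stretch with no measured site, averaged 84.4 to 93.2%. They are the capitals in the sequence above, apart from 1 that averaged 0.439% among them. In Mtnr1a, the melatonin receptor MT1, 5 sites averaged 0.225 to 2.5%, and the other 2 averaged 83.4 and 88.6% after a gap of 282 bp. In Ano8, of the anoctamin family, 1 site was at 0 in all 12 mice while the other 5 averaged 84.8 to 96.6%. The 6 sites of 4933428G20Rik averaged from 0.688 to 95.7%. Every mouse was near the tile mean in these 4 tiles, with an SD within groups of 1.10 to 2.97 points.

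**Figure D2:**
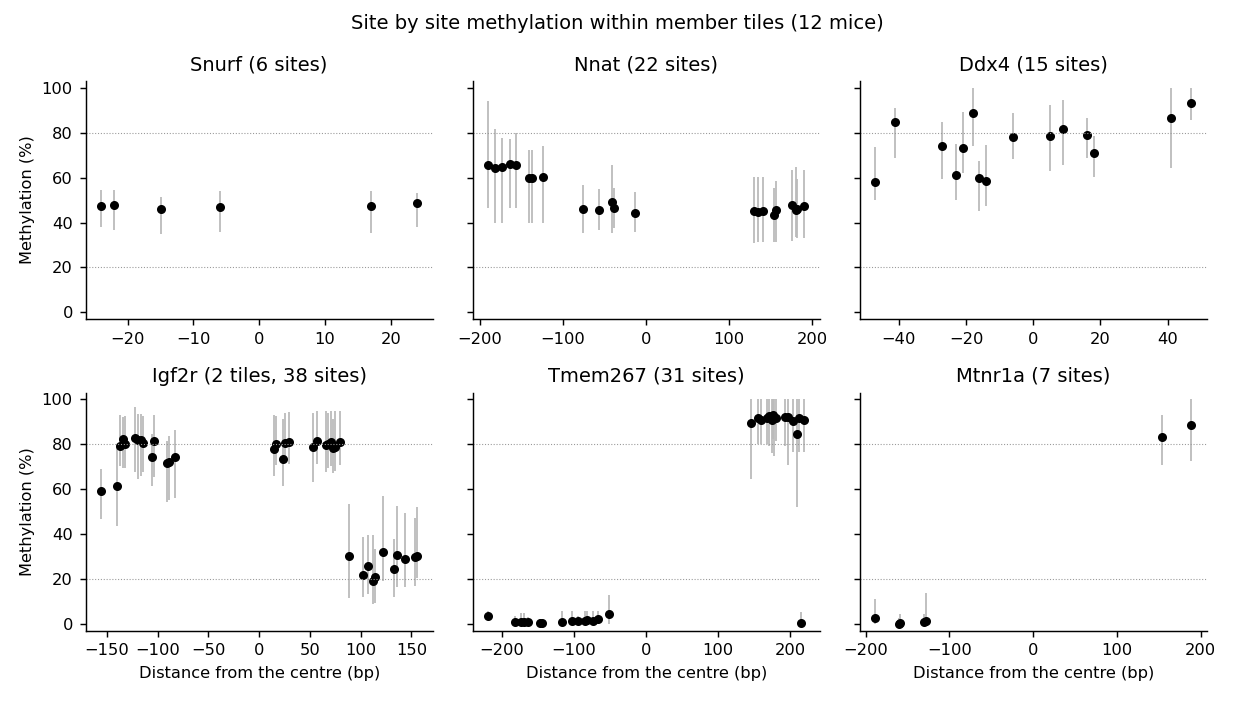
Methylation of each measured CpG in 6 genes (points: mean of 12 mice; grey lines: lowest to highest mouse) by distance from the centre of the measured stretch in bp, with dotted lines at 20 and 80%. Snurf sites average 46.0 to 48.6%, while Igf2r and Tmem267 change level along the stretch.

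Igf2r, the imprinted receptor that clears insulin-like growth factor 2, had a pair of neighbouring members with a step in level after the first site of the second one. Its tile at the lower position (26 sites) averaged 77.6%, and the next (12 sites) averaged 31.2%. On chromosome 17 the site at 12769501 averaged 80.8% and the site 9 bp on, at 12769510, averaged 30.2%. The 11 sites after the step averaged 18.96 to 32.0%.

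The members with the most sites were 4933428G20Rik (37 sites, 78.5%), Purb (34 sites, 24.7%), Sema6c (32 sites, 37.4%), Zrsr1 (31 sites, 67.1%) and Efna2 (31 sites, 43.3%), with Tmem267, described above, also at 31. Purb encodes a DNA-binding protein that represses muscle genes. Sema6c is a semaphorin and Efna2 an ephrin ligand, both guidance molecules. Sites within Efna2 averaged from 2.99 to 75.8%, and those within Sema6c from 15.3 to 82.3%.

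By gene group, imprinted genes held many members. Of 46 imprinted genes listed, 22 had a tile at an end, 38 tiles in all, of which 21 were under 20%, 14 were members and 3 were above 80%. The 14 members, in 10 genes, had levels of 23.7 to 77.6% with a median of 52.8%. In 10 of the 14 all sites averaged 20 to 80%, against 37.1% of all members. They belonged to Zrsr1, Snurf, Plagl1, Peg10, Igf2r, Slc38a4, Magel2, Nnat, Gnas and Nap1l5. The 22 sites at the start of Nnat, a membrane proteolipid gene, averaged 43.5 to 66.1%. In Gnas, which encodes the stimulatory G protein subunit, 11 of 14 sites were under 20% and the tile averaged 23.7%.

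Genes used in germ cells stood mostly above 20%. Of 22 tiles at the ends of 15 such genes, 3 were under 20%, 9 were members and 10 were above 80%. The members had a median of 68.7%. At Ddx4, the germ-cell RNA helicase VASA, 15 sites averaged 58.2 to 93.2%. At Slc25a31, the testis ADP/ATP carrier, 16 sites averaged 47.2 to 93.7%. Smc1b, the meiotic cohesin subunit, averaged 59.0% over 20 sites, and Sycp1, of the synaptonemal complex, averaged 74.0% over 8. Mael, Mov10l1, Rnf212 and Tex101 held the remaining ones.

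The lists of heart cell types and factors rest on few tiles, and are given beside the share of 7.15% over all gene-end tiles. Of 9 tiles at cardiomyocyte markers 6 were under 20% and 3 (33.3%) were members. These lay at the 3′ ends of the cardiac troponin T gene Tnnt2 (48.3%) and of the myosin heavy chains Myh6 (64.2%) and Myh7 (63.8%). Of all tiles assigned to a 3′ end, 27.7% were intermediate. Of 15 tiles at endothelial markers 13 were under 20% and 2 (13.3%) were members, in the junction gene Esam (27.3%) and in the nitric oxide synthase Nos3 (71.1%). Leukocyte markers had 1 member of 5 tiles (20%), the Fc receptor Fcgr1 (46.0%), also at a 3′ end. The fibroblast, mural and epicardial lists had 2, 2 and 5 tiles and no member, and the erythroid list had no tile. Of 28 tiles at cardiac transcription factors 24 were under 20%. The 4 members (14.3%) were in Hopx (57.8 and 46.4%), an atypical homeodomain protein, in Irx4 (31.7%), a ventricular homeobox gene, and in Hand1 (33.0%).

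Among metabolic and signalling genes, 20 of 21 tiles at fatty acid oxidation genes were under 20%. The 1 member there (4.76%) was Ucp3, at 69.4%, a mitochondrial carrier of muscle. Of 23 tiles at insulin and IGF signalling genes 22 were under 20% and none was a member. Inflammatory signalling genes had 4 members of 25 tiles (16%), in the NF-kappa-B inhibitor-like gene Nfkbil1 (21.8%), the interferon-responsive factor Irf1 (74.3%) and the growth factor Tgfb1 (41.6 and 60.2%). All 4 lay at 3′ ends. Families grouped by symbol after the values were seen differed more. The clustered protocadherins, adhesion genes with a promoter for each variable exon, had 18 members among 29 tiles (62.1%), with a median of 36.9%. Zinc finger genes named Zfp had 13 of 238 (5.46%) and Hox genes 2 of 45 (4.44%).

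Mice differed little at most members. The pooled SD within the 4 groups had a median of 4.79 percentage points, against 4.78 in intermediate tiles elsewhere. All 12 mice were between 20 and 80% in 572 members. The median mouse was outside the range in 22, 14 below and 8 above. In 47 members the SD within groups exceeded 10 points. The widest were Ugcg, both Actn1 tiles and Ppp1r15b.

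Of these 47 wide members, 11 had 10 or more sites, and they averaged 20.1 to 35.8%. RD female 1 was the highest mouse in 9 of the 11, and in 8 of them HFD male 4 was second. The 8 were Chd7, Fkbp5, Lgi2, Nfix, Nova2, Purb, Rims4 and Ugcg. This is a description, since a mouse with a high level helps to lift a tile over the limit of 20%. Without RD female 1 the means of Ugcg, Fkbp5 and Lgi2 were 16.5, 17.4 and 16.99%, and that of Sim2 was 19.96%, so these 4 would not have been members. Of the 7 that would, RD female 1 was highest in 6 and HFD male 4 second in 5. Over all 892 members RD female 1 and RD male 2 had the highest averages of the 12 mice, 51.49 and 51.48%, and HFD male 4 averaged 50.3%, the lowest being 49.7%. RD male 2 was the highest mouse in 126 members (14.1%) and RD female 1 in 112 (12.6%). In the 31 members with 10 or more sites and a mean under 35%, RD female 1 averaged 33.6% and the other mice 21.8 to 27.6%. At gene-end tiles under 20% the 2 mice averaged 3.53 and 3.33%, with a range over the mice of 2.04 to 3.71%. HFD male 4 had the fewest sites with a value. What sets these mice apart was not tested. Without RD female 1, 17 of the 892 tiles, the 4 above included, would not have been members, against 0 to 10 without any other mouse.

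In the Ugcg promoter, shown above, HFD mice had 3.84, 22.3 and 54.5% (lowest, median and highest) and RD mice had 0.385, 4.70 and 64.9%. RD female 1 and HFD male 4 were far above the rest, the next mouse being at 34.2%. All 13 sites were highest in RD female 1. Fkbp5 and Rims4 are described because of these values, having been chosen after they were seen. In Fkbp5, the chaperone that tempers glucocorticoid receptor signalling, HFD mice had 7.26, 13.8 and 36.7% and RD mice 4.47, 22.4 and 64.0%. RD female 1 was highest at 18 of its 22 sites. In Lgi2, a secreted leucine-rich repeat protein, the highest mice had 54.9 and 45.7% and the next 31.01%. In Purb, RD female 1 had 60.9%, HFD male 4 had 39.9% and the next mouse 31.4%, with RD female 1 highest at 30 of 34 sites. In Rims4, a synaptic protein gene, RD female 1 had 61.0%, HFD male 4 had 56.6% and the next mouse 41.7%. RD female 1 was the highest mouse at 23 of the 26 Lgi2 sites and at 8 of the 10 Rims4 sites.

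Actn1, the alpha-actinin of focal adhesions, had a pair of adjacent wide tiles near its 3′ end. Over its 8 sites HFD mice had 20.9, 37.3 and 71.3% and RD mice had 34.1, 50.3 and 80.4%. Over the 4 neighbouring sites they had 43.3, 54.3 and 90.1% and 44.1, 53.4 and 89.9%. RD male 1, HFD male 4 and HFD female 4 were the 3 highest mice in both tiles. The diets overlapped in each.

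**Figure D3:**
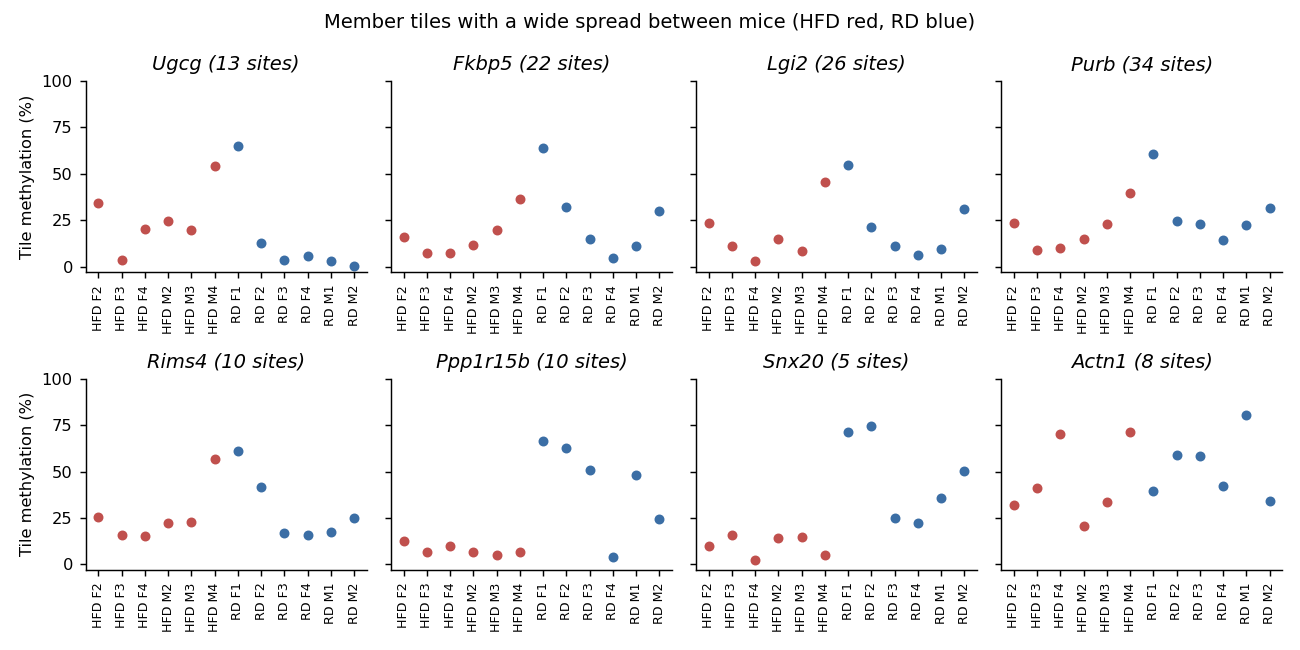
Tile methylation (percent) in each of the 12 mice for 8 members with a wide spread, HFD in red and RD in blue, F for females and M for males with the replicate number. RD F1 and HFD M4 are the 2 highest points in Ugcg, Fkbp5, Lgi2, Purb and Rims4, and not in Ppp1r15b, Snx20 or Actn1.

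Between the maternal diets, 1 of the 892 members passed the test (limma, Benjamini-Hochberg adjusted p under 0.05 over all tiles tested), and it was lower in HFD. This is 0.112% of members, against 0.0294% of the 23791 tiles tested, 7 tiles that were all lower in HFD (0.0294% lower and 0% higher). An unadjusted p under 0.05 was found in 95 members (10.7%), 70 lower and 25 higher in HFD, against 7.81% of all tiles tested (4.64% lower and 3.17% higher). Among all members, 498 (55.8%) had the lower mean in HFD, and the median difference was -0.511 points. Over all tiles tested, 53.3% were lower, with a median of -0.177. Intermediate tiles elsewhere were close to the members. There 9.49% had an unadjusted p under 0.05 and 56.4% were lower in HFD, with a median of -0.489. The lean towards lower values in HFD was thus not particular to gene ends.

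Differences of more than 10 points occurred in 24 members (2.69%), 20 lower and 4 higher in HFD, against 1.31% of all tiles tested (0.95% lower). The diets did not overlap in 12 members (1.35%). This share was 0.626% in all tiles tested (0.467% lower and 0.16% higher) and 0.897% in intermediate tiles elsewhere. Of the 12 members, 11 were lower in HFD: both Zrsr1 tiles, Esam, Nfkbil1, Plagl1, Snx20, Peg10, Erich3, Cbfa2t3, Hs3st5 and AI467606. Klb was the 1 that was higher.

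Over all members together, the mice averaged 50.1% ± 0.286 under HFD and 50.9% ± 0.5 under RD (SD, n = 6 each), a difference of -0.882 points. The highest HFD mouse had 50.35% and the lowest RD mouse 50.41%, so the groups did not overlap, by a narrow margin. With each member site weighted equally they did overlap, the highest HFD mouse being at 49.97% and the lowest RD mouse at 49.5%. In intermediate tiles elsewhere the means were 57.9 and 58.7% and the diets overlapped. In gene-end tiles under 20% HFD was 0.25 points higher and in those above 80% it was 0.239 points lower, with overlap in both. No test was made of these averages.

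The member that passed lies in Zrsr1, an imprinted retrogene encoding a splicing factor, which sits inside an intron of Commd1 (chr11:22972500-22972993, 31 sites). The HFD mice had 54.7, 54.8, 55.4, 61.4, 62.5 and 63.3%. The RD mice had 70.02, 75.03, 75.3, 76.1, 78.1 and 78.5%. The groups were 6.72 points apart at their nearest. Means were 58.7% ± 4.11 in HFD and 75.5% ± 3.04 in RD (SD, n = 6 each), a difference of -16.8 points. On the log2 ratio scale of methylated to unmethylated the difference was -0.99 with an SE of 0.14 (limma adjusted p = 0.0328). All 31 sites were lower in HFD, by 3.19 to 29.3 points. Among them were the 13 measured positions in the sequence above, whose capitals mark 12 CpGs. These positions were lower by 15.5 to 29.3 points. The call held in 3 of the 12 fits that left out 1 mouse, those without HFD female 3, HFD male 4 or RD female 4, with adjusted p-values of 0.0236 to 0.148 over the 12. It was also lost when the offset added to both sides of that ratio was 0.01 in place of 0.05 (adjusted p = 0.0591), and when sites with values in at least 10 samples were used. The adjoining Zrsr1 tile of 10 sites had 59.3% ± 3.33 in HFD and 67.9% ± 2.05 in RD and did not pass (limma adjusted p = 0.288), with all 10 sites lower.

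The other 6 members lower in HFD with the smallest p-values did not pass, though 3 of them did under other settings. Esam, an adhesion molecule of endothelial junctions (chr9:37528142-37528206), had 15.2, 18.0 and 25.2% in HFD (lowest, median and highest) and 28.6, 35.6 and 38.9% in RD. The difference was -15.4 points (limma adjusted p = 0.0622). It passed without HFD female 3 and without RD female 4, with adjusted p-values of 0.032 and 0.0369, and had 0.032 to 0.167 over the 12 fits that left out 1 mouse. It also passed on untransformed rates (0.0245), without the sex term (0.0334), with only tiles of 20 to 80% tested (0.0217) and with at least 5 sites in a tile (0.0243). Nfkbil1 (chr17:35220728-35220965) had 13.9, 17.2 and 20.1% in HFD and 23.6, 24.7 and 34.5% in RD, with all 15 sites lower in HFD (limma adjusted p = 0.0734, and 0.0255 and 0.0258 under the last 2 of those settings). Neither gene's groups overlapped. HFD mice averaged 19.5% in Esam and 17.1% in Nfkbil1, so both tiles reached the lower limit for members through the RD mice. The setting with only tiles of 20 to 80% tested applied the same limits, so both tiles entered it in the same way.

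Nrap, a muscle protein that links myofibrils to the intercalated disc (chr19:56320323-56320438), had 18.6, 19.7 and 26.3% in HFD and 25.1, 32.3 and 37.8% in RD (limma adjusted p = 0.0989, and 0.0447 under each of the same 2 settings). Its groups overlapped by 1 mouse on each side. Plagl1, an imprinted zinc finger gene that restrains growth (chr10:13090623-13090814), had 44.3, 52.7 and 55.0% in HFD and 61.6, 66.3 and 76.3% in RD. Its 12 sites, the capitals above, were all lower in HFD by 7.89 to 19.3 points (limma adjusted p = 0.15). Rnf212, a meiotic crossover factor, had means of 48.7% ± 8.02 and 59.8% ± 6.13 (limma adjusted p = 0.24), with overlap.

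Snx20, a sorting nexin of blood cells (chr8:88627501-88627516), had the widest difference of these. The 6 HFD mice had 2.16 to 15.8% and the RD mice had 22.1, 25.2, 35.7, 50.5, 71.5 and 74.5%. The groups did not overlap, and the RD mice spread over 52.3 points (limma adjusted p = 0.206). HFD mice averaged 10.3% and RD mice 46.6%, so the tile reached the limit of 20% through the RD mice. Its place among the members depends on the difference.

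Ppp1r15b, the regulatory subunit of a phosphatase that restores protein synthesis after stress (chr1:133131102-133131173), showed a like spread in RD mice. HFD mice had 4.90, 6.90 and 12.4%. The RD mice had 3.91, 24.6, 48.2, 50.6, 62.5 and 66.6%, so that 5 of them were above every HFD mouse and RD female 4 was below them all. All 10 sites had the lower mean in HFD. HFD mice averaged 7.86% and RD mice 42.7%, so this tile too reached the lower limit for members through the RD mice. Its place among the members, like that of Snx20, depends on the difference. The difference was -34.9 points (limma adjusted p = 0.334). Without RD female 4 it was -42.6 points and passed (adjusted p = 0.00176), while the other 11 such fits did not pass, with adjusted p-values up to 0.508.

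The 6 members higher in HFD with the smallest p-values were Klb, Mydgf, Mmp23, Zfp996, Slc5a4a and Golm1, and none passed (limma adjusted p = 0.326 to 0.476). Klb, the co-receptor of the metabolic hormone FGF21 (chr5:65348684-65348750), had 67.0, 71.1 and 74.8% in HFD and 52.1, 61.4 and 66.8% in RD. Its groups were separated by 0.163 points. Mydgf, a growth factor secreted by bone marrow cells after heart injury, had 77.2, 84.8 and 91.2% in HFD and 65.9, 73.0 and 83.4% in RD, with overlap. In all 6 genes each measured site had the higher mean in HFD. These tiles, and the lower ones above, were chosen by their diet p-values and their sites lie close together. The agreement among sites is therefore a description.

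**Figure D4:**
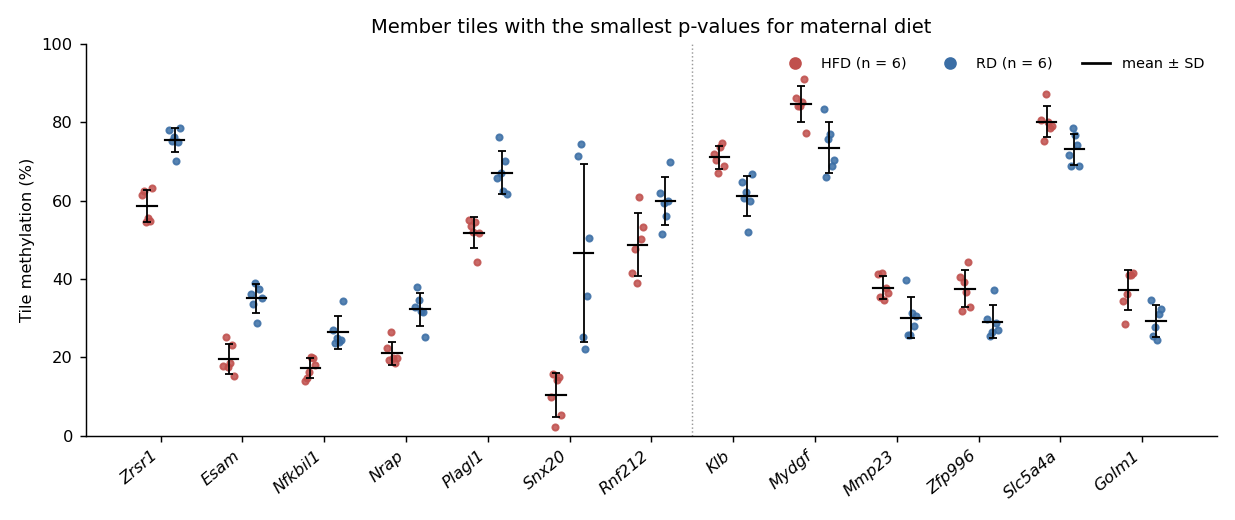
Tile methylation (percent) of each mouse for the member that passed the diet test (Zrsr1) and the 12 others named by the smallest p-values, HFD in red and RD in blue with mean ± SD (n = 6 each), those lower in HFD left of the dotted line. Groups are apart in Zrsr1, Esam, Nfkbil1, Plagl1, Snx20 and Klb and overlap in the rest.

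Most imprinted members had the lower mean in HFD. Of the 14 members at imprinted genes, it was lower in 11 (beside 53.3% of all tiles tested) and higher in 3. The median difference was -8.19 points, beside -0.177 over all tiles tested. One passed (Zrsr1), beside 0.0294% of all tiles tested. In 7 the unadjusted p was under 0.05, beside 7.81%, and in 4 the diets did not overlap, beside 0.626%. The list was chosen with earlier results of these data known, so these shares are a description. Zrsr1, Snurf, Igf2r and Nnat each hold more than 1 of the tiles, so the tiles are not independent. Peg10, a gene derived from a retrotransposon and needed in the placenta (chr6:4747355-4747490), had 48.0, 57.2 and 63.5% in HFD and 64.6, 68.4 and 79.1% in RD (limma adjusted p = 0.24). All 13 sites were lower in HFD. Snurf (9 sites) had 22.2, 34.9 and 50.4% against 41.5, 54.0 and 58.1%, with overlap (limma adjusted p = 0.377). Both Igf2r tiles were lower in HFD, by 8.84 and 9.40 points, at each of their sites (limma adjusted p = 0.558 and 0.388).

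The other imprinted members did not pass either. Slc38a4, an amino acid transporter, had 39.5% ± 10.7 in HFD and 47.3% ± 10.02 in RD, with overlap, and the 6-site Snurf tile had 45.6% ± 4.85 and 49.0% ± 5.03. Magel2 had 54.2% ± 5.27 and 55.9% ± 3.6, and the 8-site Nnat tile 54.9% ± 7.52 and 52.0% ± 6.76. The 22-site Nnat tile had means of 52.1% ± 4.98 and 52.3% ± 5.97. Nap1l5 had 53.3% ± 9.69 in HFD and 46.4% ± 9.33 in RD, and Gnas had 25.4% ± 6.29 and 21.9% ± 1.61 (SD, n = 6 each). These 7 tiles had limma adjusted p-values of 0.771 to 0.994.

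**Figure D5:**
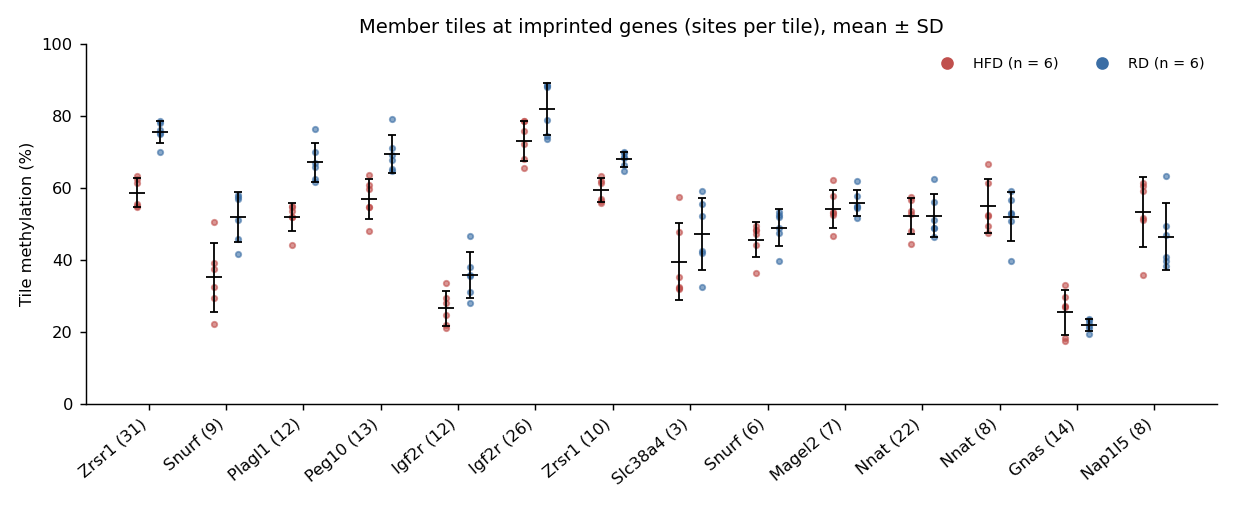
Tile methylation (percent) of each mouse for the 14 members at imprinted genes, HFD in red and RD in blue with mean ± SD (n = 6 each), ordered by the difference and with the number of sites in brackets. The HFD mean is the lower in 11 of 14, and 1 (Zrsr1, 31 sites) passed the test.

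The other gene groups gave no call. Among germ-cell members 5 were lower and 4 higher in HFD, and their median difference was -0.0439 points. Ddx4 had 76.0% ± 4.38 in HFD and 74.2% ± 2.12 in RD, and Slc25a31 had 79.2% ± 1.93 and 76.6% ± 3.91 (SD, n = 6 each). Of the cardiomyocyte members, Myh6 had 59.6% ± 9.60 and 68.7% ± 5.62, and Tnnt2 49.0% ± 4.10 and 47.7% ± 4.74, with overlap in both. All 4 cardiac transcription factor members had the lower mean in HFD, with differences from -1.196 to -10.2 points, and all overlapped. For Hand1 the sign changed when HFD female 2, HFD male 3 or RD female 2 was left out. Nos3, Ucp3 and Fcgr1 differed by -3.05, -2.81 and -0.52 points, less than their SD within groups. Cavin4, a caveolae protein of muscle named after its values were seen, averaged 67.4% ± 7.84 in HFD and 81.6% ± 6.37 in RD, with overlap (limma adjusted p = 0.258).

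By side, 226 of 384 members at starts (58.9%), 178 of 305 at 3′ ends (58.4%) and 94 of 203 with unknown strand (46.3%) had the lower mean in HFD, beside 53.3% of all tiles tested. The diets did not overlap in 8 members at starts (2.08%), in 1 at a 3′ end (0.328%) and in 3 of unknown strand (1.48%), beside 0.626% of all tiles tested.

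Between females and males, 0 of 892 members passed (limma), against 4 of all tiles tested (0.0168%). An unadjusted p under 0.05 was found in 57 members (6.39%) and in 5.56% of all tiles tested. Noxa1, Ptx3 and Kdm4a had the smallest p-values. Noxa1, an activator of an NADPH oxidase, averaged 43.8% ± 4.64 (SD) in the 7 females and 55.1% ± 2.48 in the 5 males (limma adjusted p = 0.576). Ptx3, a secreted pattern recognition protein, averaged 41.8% ± 5.81 and 51.3% ± 7.9996, and the histone demethylase Kdm4a averaged 73.4% ± 2.13 and 81.2% ± 4.51, both with a limma adjusted p of 0.788.

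Whether the diet difference itself differed between the sexes was tested as an interaction, and 0 of 892 members and 0 of all tiles (0%) passed with limma. An unadjusted p under 0.05 was found in 49 members (5.49%), against 5.09% of all tiles tested. Hk3, Tjap1 and Pgam2 had the smallest p-values, each with a limma adjusted p of 0.931. In Hk3, a hexokinase of blood cells, HFD females averaged 84.4% and RD females 74.96%, while HFD males averaged 78.5% and RD males 85.7%. In Tjap1, a tight junction protein, the averages were 54.5 and 69.0% in females and 57.0 and 51.1% in males. In Pgam2, the phosphoglycerate mutase of muscle, they were 49.4 and 55.0% in females and 57.1 and 45.9% in males. With 2 RD males, the last group rests on few values.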

How the data were processed

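The deposited table held 421177 CpG positions with 1 column per mouse, as percent methylation computed by the authors, per the file headers. Build mm10, Bismark 0.19, Trim Galore, FastQC and limma are named in the submitters' processing notes, without their settings. Of 38909 positions inside RefSeq promoter stretches, 38902 fell on a CpG of that build. Of these, 18933 were on its C and 19969 on its G, so a CpG may be counted as a site on each strand. Autosomal positions with 12 values (306534) were averaged into tiles. Rates as fractions were turned into log2((rate + 0.05)/(1 − rate + 0.05)) and fitted with limma 3.58.1 in R 4.3.3, with diet and sex as terms, plus their interaction in a separate model. Tiles with a mean of 5 to 95% were tested (23791), with Benjamini-Hochberg adjustment over them and a threshold of 0.05. The test was checked on simulated rates. Tiles carry the name of the protein-coding gene with the nearest end, and strands came from the RefSeq promoter table. The 13 gene lists (274 genes) and the members were chosen with earlier results of these data known. Named tiles were those past the diet threshold, the 6 lower and 6 higher with the smallest p, up to 3 per list, the 5 with the most sites, the 4 with the smallest and the 4 with the largest spread across sites among members of 6 or more sites, the 4 most variable, the 3 with the smallest p for sex and interaction, and 2 on each side of each limit. Other named tiles belong to a list or were chosen after their values were seen. Alternatives covered the offset, limits, terms, tile size and each mouse left out.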

Additional observations from a re-analysis of the deposited data

Results flagged for a closer look

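In 154 groups of values, 1 mouse lay far from the rest of its diet group 11 times. Chance gives about 7.7 in groups that were not chosen by their spread, but several of these tiles were named for a wide spread or after their values were seen, so the number is no yardstick for them. RD female 1 was the highest RD mouse in Ugcg, at 64.9% against 0.385 to 12.5%, and in Purb, at 60.9% against 14.4 to 31.4%. HFD male 4 was the highest HFD mouse in Rims4, at 56.6% against 15.1 to 25.4%. RD female 2 had 98.0% in Rrad against 74.4 to 82.4%. RD female 4 had 35.5% in Irx1 against 10.3 to 19.4%, and 37.1% in Zfp996 against 25.4 to 29.7%. RD male 2 had 34.5% in Nfkbil1 against 23.6 to 27.1%. RD male 1 had 48.4% in the Mael tile of 4 sites against 51.2 to 52.9%. Among HFD mice, male 3 had 44.3% in Plagl1 against 51.8 to 55.0%, male 2 had 76.3% in Tmem163 against 80.1 to 81.9%, and female 2 had 66.7% in Irf1 against 73.4 to 77.1%.

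In Hk3 the diet difference was 9.44 points in females and -7.29 points in males. These are 16.7 points apart and did not pass (limma interaction adjusted p = 0.931).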

How the results depend on the processing

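The number of members called between the diets, 1, was 0 with an offset of 0.01 and 0 with a replicate block. It was 2 on untransformed rates and 2 without the sex term. It was 4 when only tiles of 20 to 80% were tested and 4 with at least 5 sites in a tile, where fewer tiles were tested. Leaving out 1 mouse at a time gave 0 to 3. Apart from the number of tiles tested, the cause was not tested. Where sites with values in at least 10 samples were used, 1 member was called, but it was Twf1, higher in HFD (limma adjusted p = 0.0194), and not Zrsr1. Trend and robust variances, no limit on the mean, tile medians, and tiles of 250 or 1000 bp each called 1 member, in Zrsr1. No member passed for sex or the interaction under any alternative run. Whether the replicate numbers pair the mice was examined only between HFD and RD females. The correlations of same-numbered females were 0.0168, 0.00955 and -0.0118, and 1 of the 3 correlated best with its own number. Males, and females against males, were not compared, so a pairing among them is not excluded. Under the replicate block Zrsr1 had an adjusted p of 0.451. The share of members with all sites at 20 to 80% was 23.4% in those with 6 or more sites. Over 72 tile results and 19 settings, 1349 values kept their side of the threshold, 8 crossed to pass and 11 crossed to fail (all Zrsr1). The diet difference changed sign when 1 mouse was left out in 17 of the 72, none of which passed the test (limma adjusted p of 0.919 or more with all mice), among them Rims4, Lgi2, Nsd2, Hand1, Tnnt2 and the Actn1 tile of 4 sites. The planned coverage minimum was left out, since coverage is not among the table's columns.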
